A study of Homo sapiens with 18 samples.

Results

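The human mitochondrial genome gives 37 RNAs: 13 mRNAs, 2 rRNAs and 22 tRNAs. They were taken as every row on chromosome M of a count table of 41285 genes, and all 37 were found and kept apart by biotype. All 37 passed the filter on low counts, in a table of 22143 genes tested. Counts came from 18 RNA libraries of K562, a chronic myeloid leukaemia cell line, with 2 libraries in each of 9 groups. Parental K562 cells were untreated or were given recombinant human interferon alpha (IFN) at 1000 U/mL for 24 hours. K562[VPR]-D9 cells, in which doxycycline induces the activator dCas9-VPR, were untreated or belonged to the groups coded D2000 and D6, both labelled as doxycycline alone. K562[KRAB]-D9 cells, in which doxycycline at 2 µg/mL induces the repressor dCas9-KRAB, were untreated or were given IFN, doxycycline, or both. In the last group doxycycline was started 24 hours before IFN and kept on. The labels explain neither D9, D2000 and D6 nor whether D2000 and D6 differ in dose or time, and do not say if a line is 1 clone. SAMD9, an interferon-induced gene, is the subject of the series, and IFN was used to induce it.

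Both strands of mitochondrial DNA are transcribed by the polymerase POLRMT, with the factors TFAM and TFB2M, into long precursors that cross many genes. The tRNAs lie between the mRNAs and rRNAs like punctuation, and their excision by the RNase P complex and by ELAC2 frees the RNAs on either side. Most of the mRNAs are then polyadenylated by MTPAP and held stable by LRPPRC and SLIRP, while PNPT1 and the helicase SUPV3L1 degrade mitochondrial RNA. All 13 mRNAs encode inner-membrane subunits of the respiratory chain or ATP synthase, and the 2 rRNAs build the mitochondrial ribosome. Doxycycline, apart from its use as an inducer, belongs to the tetracyclines, which bind bacterial ribosomes and also hinder translation in mitochondria.

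Libraries were made by polyA selection, which captures RNAs by a polyA tail. How well it captured each mRNA was not measured. In the GRCh38 reference transcripts of GENCODE release 29, 6 of the 13 mRNAs end in an incomplete stop codon that polyadenylation completes to UAA. Those ends are shown first, 5′ to 3′ on the transcribed strand, with the incomplete codon in capitals.
MT-ND1, chrM:4237-4262, plus strand: atctccagcattccccctcaaaccTA
MT-ND2, chrM:5487-5511, plus strand: tccccttttatactaataatcttaT
MT-CO3, chrM:9966-9990, plus strand: gtctccatctattgatgagggtctT
MT-ND3, chrM:10380-10404, plus strand: caaaaaggattagactgaaccgaaT
MT-ND4, chrM:12113-12137, plus strand: gacatcattaccgggttttcctctT
MT-CYB, chrM:15863-15887, plus strand: gaaaacaaaatactcaaatgggccT
As annotated there, the other 7 end in a whole codon. It is shown in capitals here for the gene with the most reads and for the only mRNA read from the minus strand. Both of these end in a codon that is not one of the standard stop codons.
MT-CO1, chrM:7422-7445, plus strand: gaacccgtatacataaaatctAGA
MT-ND6, chrM:14149-14172, minus strand: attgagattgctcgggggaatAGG

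Neighbouring genes share sequence, which limits how far some of the counts can be told apart. MT-ATP8 and MT-ATP6, both subunits of ATP synthase, overlap by 46 bases, and MT-ND4L and MT-ND4 overlap by 7 bases. Each of these pairs is made as 1 bicistronic mRNA. The last 24 bases of MT-ATP8 lie wholly inside MT-ATP6, and its stop codon is in capitals.
MT-ATP8, chrM:8549-8572, plus strand: cattcattgcccccacaatccTAG
The counting options for strand, for reads in an overlap and for reads with several matches are not given here. Counts of a gene and of anything read from its opposite strand therefore cannot be told apart, which bears on MT-ND6 and on the 8 tRNAs of the minus strand. Nuclear genomes also carry copies of mitochondrial genes. The table holds 151 rows named as such copies, of which 23 passed the filter. MTATP6P1 on chromosome 1 had the most reads, 160111 over the 18 libraries, against 2653224 for MT-ATP6, and is 98.5% identical to it. The next were MTCO1P12 with 11753 reads, MTND2P28 with 9524 and MTRNR2L12 with 3150. Of these 4, MTATP6P1 took the largest share of the reads of copy and mitochondrial gene together, 5.69%. As the handling of reads that match both is unknown, this share does not measure the uncertainty of the MT-ATP6 counts. MTCO1P12 and MTND2P28 are 98.6% and 98.4% identical to MT-CO1 and MT-ND2, so the same limit holds there.

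Libraries held 32694200 to 63037568 counts (median 52920238), and chromosome M took 3.32 to 4.96% of them. The mRNAs made up 2.36 to 3.94% of all counts, the rRNAs 0.762 to 1.24% and the tRNAs 0.0134 to 0.0193%. Of the erythroid markers of K562, GATA1 lay at 127 to 247 CPM (counts scaled to library size by TMM). Those of T cells and monocytes were at or below 1.74, while COL1A2, a fibroblast marker, reached 36.8 and EPCAM, an epithelial marker, 98.8. SAMD9 lay at 936 to 974 CPM in D2000 and D6, against 59.9 and 61.4 in untreated VPR-D9 cells. Without IFN, SAMD9 was at 0.75 and 0.36 in untreated KRAB-D9 cells and at 0.12 or lower with doxycycline. With IFN, it was at 55.01 and 53.48 in KRAB-D9 cells without doxycycline, and at 0.85 and 0.75 with it. In parental cells it was at 9.31 and 9.05 untreated and at 168 and 154 with IFN. ISG15, a gene induced by IFN, lay at 558 to 1075 in the 6 libraries with IFN and at 41.1 or lower in the other 12. KRAB-D9 with IFN stood apart, since the variance between its libraries was 26.9 times that of counting, where the other 8 groups had 5.38 to 8.62. Its replicate 1 was also the smallest library of the series, with 32694200 counts against 59653278 in its replicate 2. In that group all 13 mRNAs were higher in replicate 1, by a median of 0.33 on the log2 scale, while the medians of the other groups lay between -0.11 and 0.10. No label ties the 2 libraries of a group to separate cultures, and p-values here cover the spread between libraries, which may be technical. The comparisons within KRAB-D9 cells share libraries with each other, as do those against the same untreated cells. In bulk RNA, fewer cells of a kind and less RNA per cell cannot be told apart.

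All levels are TMM-scaled CPM and are compared between genes only per kb of gene length. Per length the members differed widely. Over the 18 libraries the median ran from 5268 CPM per kb for MT-CO3 and 5156 for MT-CO1, both subunits of cytochrome c oxidase (complex IV), to 818 for MT-ND6, a subunit of complex I. MT-CO3 thus lay 6.44-fold above MT-ND6. How evenly polyA selection captures the mRNAs was not tested, which limits this comparison. The highest of the 37 was MT-RNR2, the large-subunit rRNA, at 5358, whereas MT-RNR1, the small-subunit rRNA, was at 1107. The ribosome holds 1 copy of each, and polyA selection does not aim at either. MT-ND5 (1259), MT-CYB (1612) and MT-ND6 were the 3 lowest mRNAs, while MT-ATP6 (4120), MT-CO2 (3498) and MT-ND4L (3259) came after the 2 leading genes. The order of MT-CO3 and MT-CO1 is not fixed by these data, since MT-CO3 ranged from 3441 to 6153 and MT-CO1 from 4012 to 5995. MT-CO1 alone took 23.2 to 27.3% of all mRNA counts of chromosome M.

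**Figure D1:**
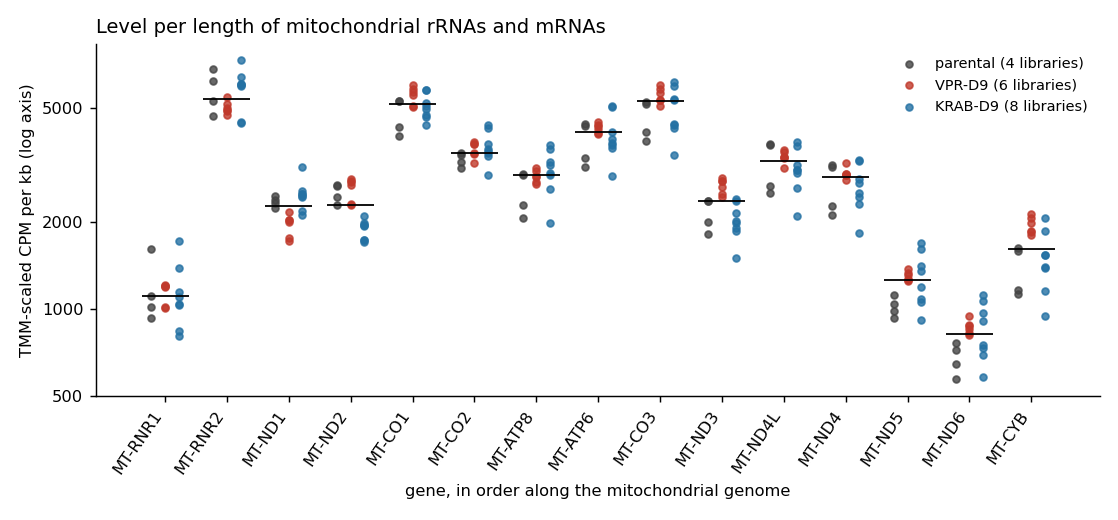
Level per length of the 2 rRNAs and 13 mRNAs, in the order of the genome; each point is 1 of 18 libraries, coloured by cell line, on a log axis of TMM-scaled CPM per kb, and black lines are medians. MT-RNR2, MT-CO3 and MT-CO1 lie highest (medians 5358, 5268 and 5156) and MT-ND6 lowest (818).

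With IFN, 5 of the 13 mitochondrial mRNAs passed the test as lower in parental cells and 0 as higher. All 13 lay lower in both IFN libraries than in both untreated libraries, as did 21.2% of all genes. Among all genes tested, 4.34% were called, 3.03% as higher and 1.31% as lower. The median log2 fold change of the 13 was -0.35, against 0.00 over all genes. MT-CO1, with the most reads, lay at 8146 and 8165 CPM in untreated cells and at 6630 and 6186 with IFN, a log2 fold change of -0.35 ± 0.04 (SE, n = 2 and 2; adjusted p = 3.8e-07 by edgeR's quasi-likelihood test with Benjamini-Hochberg adjustment). MT-CYB, the only mitochondrial mRNA of complex III, lay at 1823 and 1857 CPM and then at 1331 and 1283 (-0.49 ± 0.08, adjusted p = 0.0034). The complex I mRNAs MT-ND4L (-0.52 ± 0.09, adjusted p = 0.0046) and MT-ND4 (-0.51 ± 0.09, adjusted p = 0.0074) changed most, and they share a transcript. MT-ATP6 also fell (-0.43, adjusted p = 0.040). Uncalled were MT-ND1 (-0.08), MT-CO2 (-0.13), MT-ND5 (-0.17), MT-ND2 (-0.18), MT-ND6 (-0.29), MT-ND3 (-0.31), MT-CO3 (-0.38) and MT-ATP8 (-0.43). As a share of all counts the mRNAs went from 3.23 and 3.23% to 2.65 and 2.51%. The spread used in these tests is shared over all groups: without both libraries of KRAB-D9 with IFN, 11 mRNAs were called lower, and DESeq2 called 8. Without untreated replicate 1 there were 3 calls, without replicate 2 there were 2, without IFN replicate 1 there were 4 and without replicate 2 there was 1, and MT-CO1 was the gene called in each of these.

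In KRAB-D9 cells without doxycycline, 7 of 13 mRNAs were called lower with IFN and 0 higher (of all genes, 6.4% were called, 3.98% as higher and 2.42% as lower). Their median was -0.39. For 10 of the 13, both IFN libraries lay below both untreated ones (20.2% of all genes). MT-CYB changed most, from 1759 and 1754 CPM to 1318 and 1077 (-0.55 ± 0.08, edgeR Benjamini-Hochberg adjusted p = 0.0012). MT-ND6 went from 477 and 508 CPM to 385 and 305 (-0.52 ± 0.10, adjusted p = 0.012), and MT-ND5, also of complex I, from 2452 and 2548 to 1917 and 1657 (-0.48 ± 0.06, adjusted p = 0.00011). MT-CO3 (-0.45), MT-ND4 (-0.42), MT-ND4L (-0.39) and MT-CO1 (-0.14) were the other calls. At the other end, MT-ND1 was at 2393 and 2454 CPM without IFN and at 2969 and 2359 with it, so its groups overlapped (0.14 ± 0.08, adjusted p = 0.46). MT-CO2 and MT-ND2 overlapped too. This comparison rests on the group with the widest spread: 11 mRNAs were called lower without IFN replicate 1, whereas without replicate 2 there were 5 lower and 2 higher. Without untreated replicate 1 there were 3 calls and without replicate 2 there were 2.

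With doxycycline present in KRAB-D9 cells, 7 of 13 mRNAs were called lower with IFN and 0 higher (4.89% of all genes were called, 3.12% as higher and 1.77% as lower), with a median of -0.34. All 13 lay lower in both libraries with IFN and doxycycline than in both with doxycycline alone (22% of all genes). MT-ND6 went from 561 and 587 CPM to 364 and 395 (-0.60 ± 0.10, edgeR Benjamini-Hochberg adjusted p = 0.0057). MT-ND5 went from 2939 and 3074 to 1957 and 2154 (-0.55 ± 0.06, adjusted p = 3.5e-05), and MT-CYB from 2356 and 2138 to 1584 and 1601 (-0.50 ± 0.08, adjusted p = 0.0029). MT-CO3 (-0.49), MT-ATP6 (-0.46), MT-ND4 (-0.40) and MT-CO1 (-0.30) were also called. The mRNA share of all counts went from 3.69 and 3.70% to 2.84 and 2.92%. Without both libraries of KRAB-D9 with IFN alone, which this comparison does not use, 12 mRNAs were called lower. Leaving out doxycycline replicate 1 or 2 left 4 and 3 calls, and leaving out replicate 1 or 2 of the combined group left 2 and 4, with MT-CO1 and MT-ND5 called in each.

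The IFN effect on the mRNAs was not shown to differ between the settings. No mRNA was called in the interaction of IFN with doxycycline in KRAB-D9 cells (edgeR, 0 of 13, with 2 at an unadjusted p under 0.05, and 0 by DESeq2). The same held for the IFN effect in KRAB-D9 minus that in parental cells (0 of 13, 2 at an unadjusted p under 0.05, 0 by DESeq2). Of all genes, 0.158% were called in the first (0.0632% higher and 0.0948% lower) and 0.303% in the second (0.145% higher and 0.158% lower). Both differences depend on KRAB-D9 with IFN: without its replicate 2, 5 mRNAs were called lower in the first and 7 higher in the second, and without its replicate 1 there was 1 call in each. Without parental IFN replicate 1, there was 1 call in the second.

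**Figure D2:**
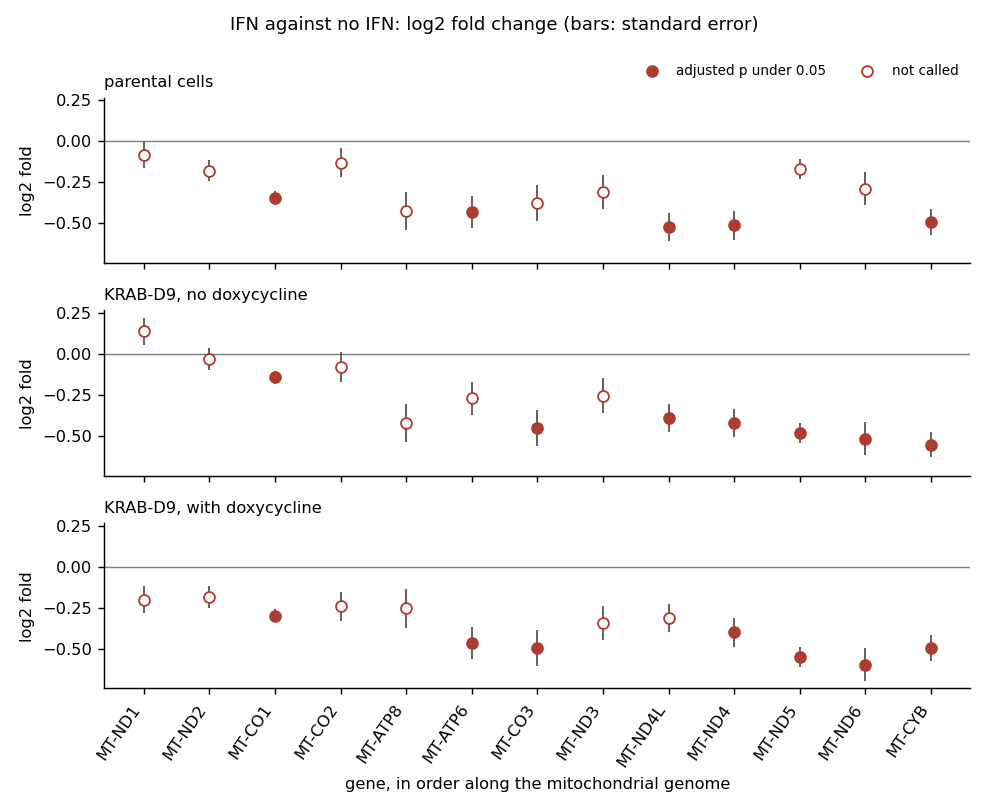
Log2 fold change of the 13 mRNAs with IFN in parental cells, KRAB-D9 cells and doxycycline-treated KRAB-D9 cells; genes are in genome order, bars are standard errors, and filled points have an edgeR adjusted p under 0.05. In all 3 panels MT-CYB, near the end of the genome, lies at about -0.5 (-0.49, -0.55 and -0.50), and MT-ND1, the first mRNA, lies at -0.08, 0.14 and -0.20.

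The size of the change varied with the place of the gene along the heavy-strand transcript, which holds 12 of the 13 mRNAs from MT-ND1 to MT-CYB. Across those 12 genes, the Pearson correlation of the log2 fold change with distance from MT-ND1 was -0.58 in parental cells with IFN (Spearman -0.57). It was -0.90 in KRAB-D9 cells with IFN (Spearman -0.88) and -0.78 in KRAB-D9 cells with IFN and doxycycline (Spearman -0.85). These are descriptions across genes of 1 transcript, and neighbouring genes are not independent. The count ratio of MT-CYB to MT-ND1, the last and first mRNA, needs no scaling. It was chosen after this pattern had been seen, so it describes the pattern and is no separate support. The ratio was 0.799 and 0.789 in untreated parental cells and 0.595 and 0.600 with IFN. In KRAB-D9 cells it was 0.735 and 0.715 untreated, 0.444 and 0.457 with IFN, 1.01 and 0.887 with doxycycline and 0.782 and 0.764 with both. IFN groups lay below their controls in each pair, with no overlap of libraries, while the doxycycline groups lay above theirs. For MT-ND6, from the opposite strand, the count ratio to its neighbour MT-ND5 ranged from 0.177 to 0.201 over the 18 libraries. As the strand setting of the counting is not given, counts of MT-ND6 cannot be told apart from reads of its opposite strand.

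With doxycycline and no IFN in KRAB-D9 cells, 6 of the 13 mRNAs were called higher and 0 lower, with a median of 0.24 against 0.02 over all genes. Far more of the whole table changed here than with IFN, 24.7% of genes, 12% as higher. For 11 of the 13 both doxycycline libraries lay above both untreated ones (30.5% of all genes). MT-CYB went from 1759 and 1754 CPM to 2356 and 2138 (0.36 ± 0.08, edgeR Benjamini-Hochberg adjusted p = 0.0055), MT-ATP6 from 2661 and 2815 to 3474 and 3430 (0.33 ± 0.10, adjusted p = 0.034) and MT-CO2, of complex IV, from 2385 and 2335 to 2976 and 2917 (0.32 ± 0.09, adjusted p = 0.024). The other calls were MT-ND4L and MT-ND5 (both 0.27) and MT-CO1 (0.17). MT-ND1 (-0.03) and MT-ND2 (0.02) overlapped between the groups. Without both libraries of KRAB-D9 with IFN, 10 mRNAs were called higher. Leaving out untreated replicate 1 or 2 left 1 and 3 calls, and leaving out doxycycline replicate 1 or 2 left 2 and 2. No parental group given doxycycline was analysed here, so the drug and the dCas9-KRAB it induces cannot be told apart.

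With IFN present, the change with doxycycline was uneven along the genome. In KRAB-D9 cells, 4 mRNAs were called higher and 1 lower (22.3% of all genes were called, 10.4% as higher and 11.9% as lower), with a median of 0.14. MT-CYB was higher, from 1318 and 1077 CPM to 1584 and 1601 (0.41 ± 0.08, edgeR Benjamini-Hochberg adjusted p = 0.0025), as was MT-ATP8, from 543 and 412 to 655 and 616 (0.41 ± 0.12, adjusted p = 0.030). MT-ND4L (0.35) and MT-ND5 (0.20) were the other 2. MT-ND1 was lower, from 2969 and 2359 CPM to 2026 and 2097 (-0.37 ± 0.08, adjusted p = 0.0078). Across the 12 heavy-strand mRNAs the Pearson correlation with distance was 0.82 (Spearman 0.69), and in the comparison without IFN it was 0.78 (Spearman 0.62). Without replicate 1 of KRAB-D9 with IFN, 11 mRNAs were called higher and 1 lower, without its replicate 2 there were 3 and 2, without replicate 1 of the combined group there were 2 and 0, and without its replicate 2 there were 1 and 1.

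**Figure D3:**
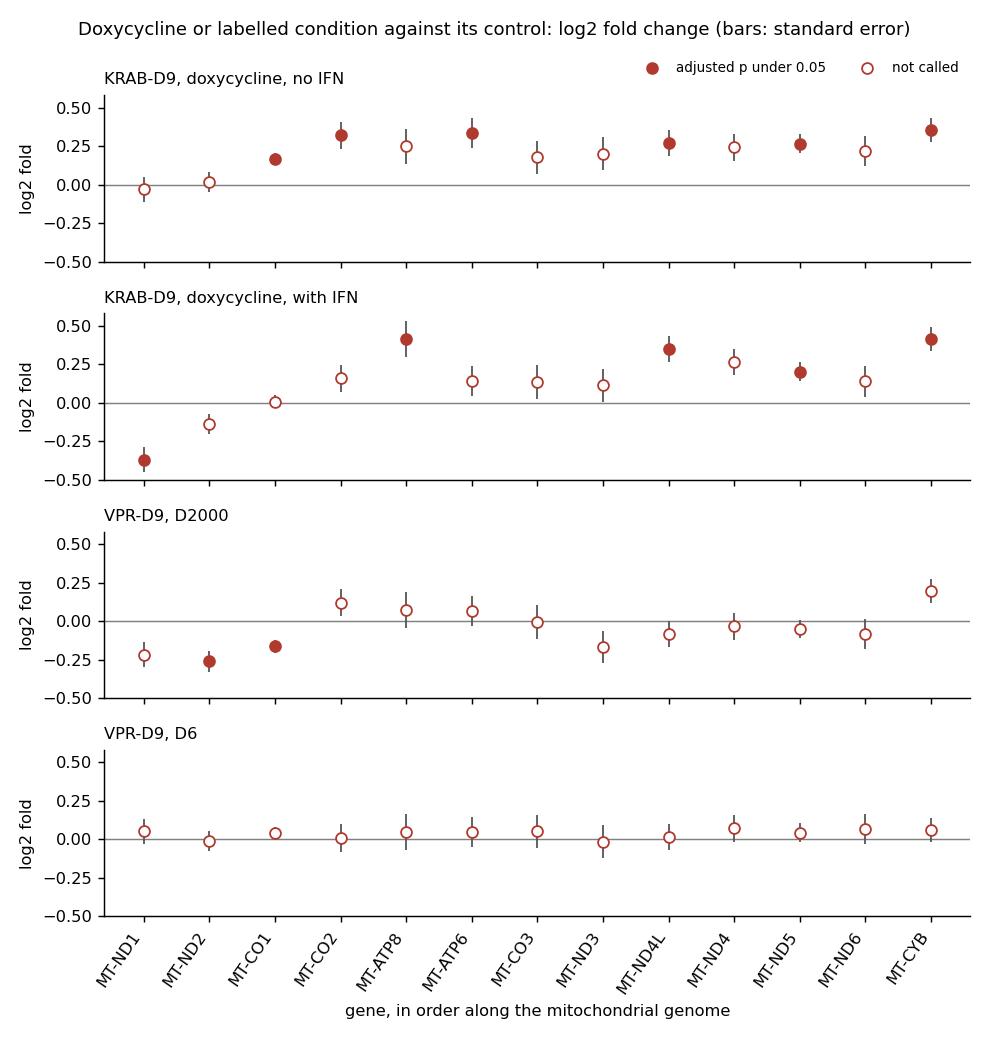
Log2 fold change of the 13 mRNAs with doxycycline in KRAB-D9 cells without and with IFN, and in VPR-D9 cells of D2000 and D6 against untreated cells; genes are in genome order, bars are standard errors, and filled points have an edgeR adjusted p under 0.05. The values span -0.37 to 0.41 in the second panel and -0.01 to 0.07 in the last.

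In D2000 of the VPR-D9 line, 2 of 13 mRNAs were called lower and 0 higher, in a comparison where 46.1% of all genes were called, 24.2% as lower. MT-ND2 went from 2878 and 2909 CPM to 2425 and 2401 (-0.26 ± 0.07, edgeR Benjamini-Hochberg adjusted p = 0.0048) and MT-CO1 from 8564 and 8946 to 7857 and 7767 (-0.16 ± 0.04, adjusted p = 0.0011). MT-CYB was at 2057 and 2135 CPM untreated and at 2443 and 2367 in D2000, with no overlap, but was not called (0.20 ± 0.08, adjusted p = 0.059). The median of the 13 was -0.05, against 0.06 over all genes. These directions depend on the scaling. The TMM factors of D2000 were 1.17 and 1.19, against 0.95 to 1.04 elsewhere, and with library totals in place of TMM the median of all genes moved from 0.06 to 0.29, that of the 13 mRNAs from -0.05 to 0.18, 8 of the 13 changed sign, and the calls became 5 higher and 0 lower, with MT-CO1 at 0.07 and MT-ND2 at -0.03. Their share of all counts was 3.43 and 3.52% in untreated cells and 3.94 and 3.88% in D2000. The MT-CYB to MT-ND1 ratio, which needs no scaling, was 1.07 and 1.09 untreated, 1.44 and 1.44 in D2000 and 1.08 and 1.09 in D6. Across the 12 heavy-strand mRNAs the Pearson correlation with distance was 0.63 in D2000 (Spearman 0.43) and 0.28 in D6 (Spearman 0.29). Without D2000 replicate 2 there was 1 call, and without both libraries of KRAB-D9 with IFN there were 2 higher and 4 lower.

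In D6, no mitochondrial mRNA was called (edgeR, 0 of 13, with 0 at an unadjusted p under 0.05 and 0 by DESeq2, where 6.6% of all genes were called, 3.19% as higher and 3.41% as lower). Their log2 fold changes lay between -0.01 and 0.07. The libraries of the groups overlapped for all 13, while 22.1% of all genes lay higher in both D6 libraries and 26.2% lower. MT-CO1, for example, lay at 8763 and 9244 CPM. A fit to the 2 groups alone called 3 higher. Against D2000, D6 was higher in 3 of 13 mRNAs and lower in 0 (40.4% of all genes were called, 21.7% as higher and 18.8% as lower): MT-ND1 (0.27 ± 0.08, edgeR Benjamini-Hochberg adjusted p = 0.023), MT-ND2 (0.25 ± 0.07, adjusted p = 0.0071) and MT-CO1 (0.20 ± 0.04, adjusted p = 0.00011). The share of mRNAs called is below that of all genes. With library totals none of these 3 was called (0.08, 0.06 and 0.01), and there were 2 other calls, both lower. Only MT-CO1 was called when D2000 replicate 1 or 2 or D6 replicate 2 was left out, and 8 mRNAs, 7 of them higher, when both libraries of KRAB-D9 with IFN were.

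The doxycycline effects of the lines were also compared directly, as VPR-D9 minus KRAB-D9. With D2000, 4 of 13 mRNAs were called lower and 0 higher (31.3% of all genes were called, 12.2% as higher and 19.1% as lower), with a median of -0.28 against -0.03 over all genes, and this share is close to that of all genes. MT-CO1 had the smallest adjusted p of them (-0.33, adjusted p = 2.8e-05 by edgeR). With library totals in place of TMM none was called and the median was -0.09. With D6 there was no call by edgeR (0 of 13, 4 at an unadjusted p under 0.05, 0 by DESeq2), where 15.5% of all genes were called, 7.87% as higher and 7.63% as lower. Without D6 replicate 2 there was 1 call.

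**Figure D4:**
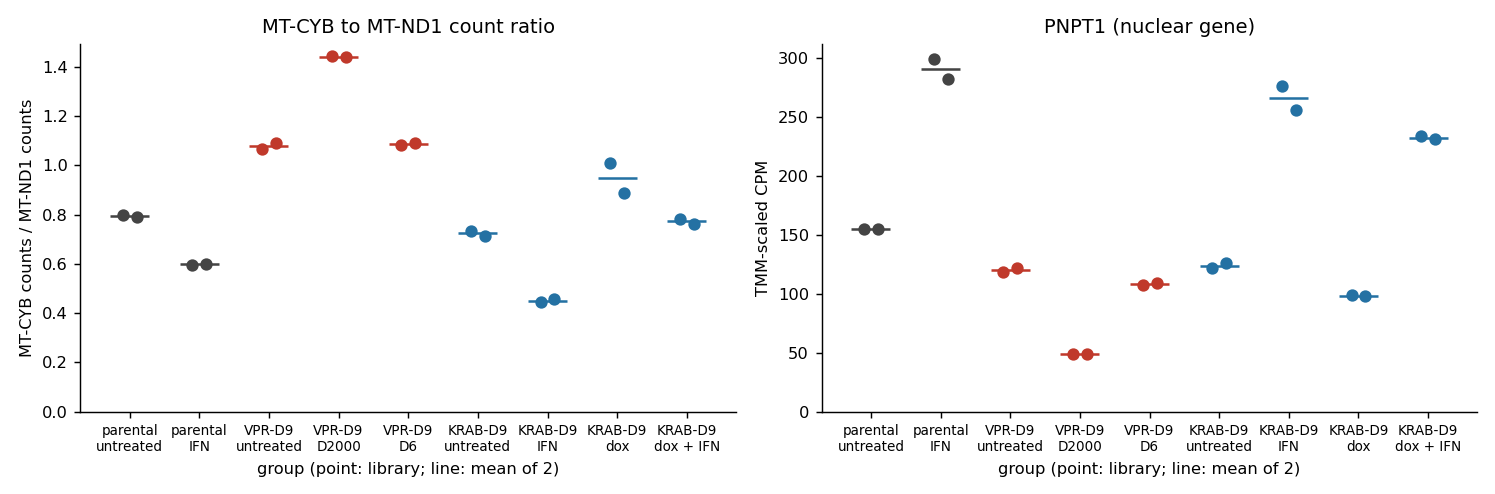
Left, count ratio of MT-CYB to MT-ND1, the last and first heavy-strand mRNAs; right, TMM-scaled CPM of the nuclear gene PNPT1; points are libraries, lines are means of 2, and colours mark the 3 cell lines. In the ratio, D2000 is highest (1.44 and 1.44) and KRAB-D9 with IFN lowest (0.444 and 0.457), and in PNPT1, D2000 is lowest (48.7 and 49.3) and the 6 libraries with IFN are highest (232 to 299.8). KRAB-D9 cells with both treatments have ratios of 0.782 and 0.764 and PNPT1 at 234 and 232. Untreated parental cells have 0.799 and 0.789, and PNPT1 at 155 and 156. A link between the panels was not tested.

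The untreated lines also differed. VPR-D9 cells had 2 mRNAs called higher and 1 lower than parental cells (36.8% of all genes were called, 18.5% as higher and 18.2% as lower): MT-ND5 (0.27 ± 0.06, edgeR Benjamini-Hochberg adjusted p = 0.0023) and MT-CO1 (0.10 ± 0.04, adjusted p = 0.046) higher, and MT-ND1 (-0.26 ± 0.08, adjusted p = 0.032) lower. With library totals there were 5 higher and 0 lower, without both libraries of KRAB-D9 with IFN 5 higher and 3 lower, and without parental replicate 1 or 2 or VPR-D9 replicate 2 MT-ND5 alone was left. KRAB-D9 cells had 2 higher and 2 lower than parental cells (28.5% of all genes, 14.2% as higher and 14.3% as lower). MT-ND5, at 2023 and 1890 CPM in parental cells, was at 2452 and 2548 (0.35 ± 0.06, adjusted p = 0.00039), and MT-ND2, at 2800 and 2818 CPM, was at 2021 and 2047 (-0.47 ± 0.07, adjusted p = 0.00010). MT-ND6 (0.34) and MT-ND4L (-0.27) were called only while all of these libraries were kept. The share called was thus below or near that of all genes in both lines.

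The 2 rRNAs did not move with the mRNAs in every group. MT-RNR2 fell with IFN in parental cells, from 9640 and 10689 CPM to 8219 and 7311 (-0.39 ± 0.09, edgeR Benjamini-Hochberg adjusted p = 0.038). In KRAB-D9 cells it was at 9325 and 9373 CPM untreated and at 11453 and 9472 with IFN alone, with both libraries above the untreated ones (0.16 ± 0.09, adjusted p = 0.40). With doxycycline present, IFN lowered it from 10014 and 9459 to 6944 and 6895 (-0.49 ± 0.09, adjusted p = 0.0099). MT-RNR1 was at 1051 and 1097 CPM in untreated KRAB-D9 cells, 1646 and 1321 with IFN, 986 and 995 with doxycycline and 798 and 770 with both. By edgeR only its change of doxycycline with IFN was called (-0.92 ± 0.15, adjusted p = 0.0014), and there MT-RNR2 was called too (-0.60 ± 0.09, adjusted p = 0.00066). The ratio of rRNA to mRNA counts was highest in KRAB-D9 with IFN, at 0.435 and 0.437, and ranged from 0.255 to 0.362 in the other 16 libraries. The interaction of IFN with doxycycline was not called for either rRNA by edgeR (-0.66, adjusted p = 0.12 for MT-RNR2, and -0.80, adjusted p = 0.29 for MT-RNR1), and it was by DESeq2 (adjusted p = 0.00046 and 0.032). The IFN effect in KRAB-D9 minus that in parental cells was 0.55 for MT-RNR2 and 0.95 for MT-RNR1, which edgeR did not call (adjusted p = 0.16 for both) and DESeq2 did (adjusted p = 0.0056 and 0.0031). DESeq2 also called MT-RNR1 higher with IFN in KRAB-D9 cells (0.47, adjusted p = 0.024). Untreated VPR-D9 cells had less MT-RNR2 than parental cells (-0.40 ± 0.09, adjusted p = 0.0044), and its other comparisons in the VPR-D9 line gave no call (-0.03 in D2000, 0.11 in D6 and 0.14 in D6 against D2000). MT-RNR1 there was -0.25, -0.01 and 0.24, also uncalled. MT-RNR1 was -0.48 with IFN in parental cells, where the untreated libraries differed (1060 and 1539 CPM), and it was called without untreated replicate 1 (-0.73) and by DESeq2. MT-RNR2 lost its call in parental cells without untreated replicate 1 or 2 or IFN replicate 2 (-0.46, -0.31 and -0.30).

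**Figure D5:**
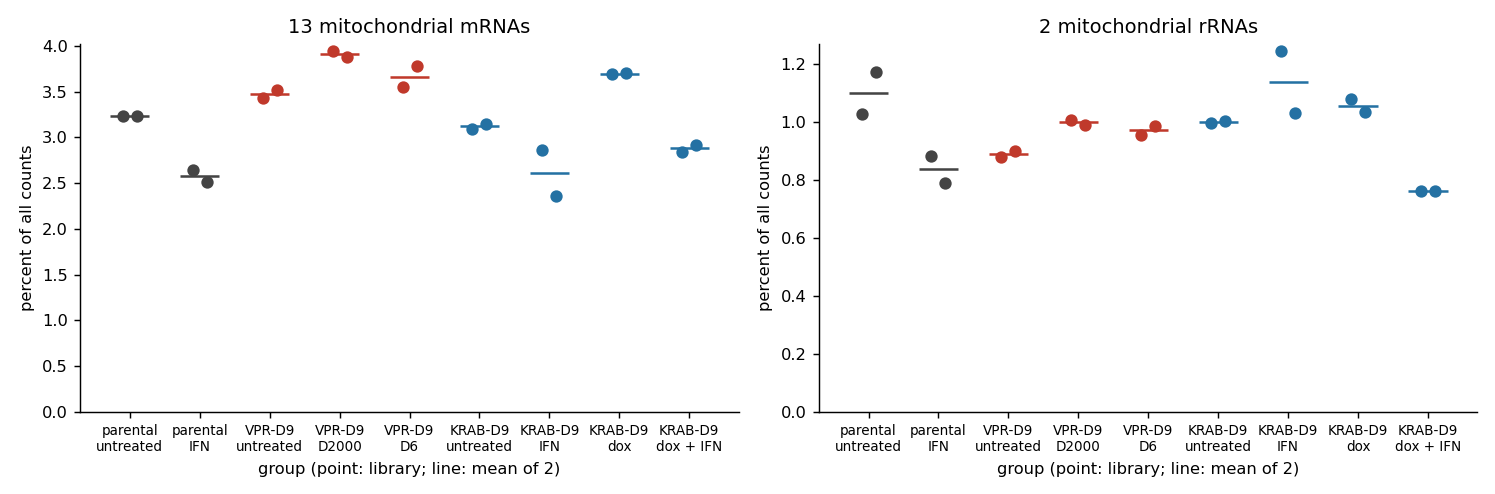
Percent of all counts taken by the 13 mRNAs (left) and the 2 rRNAs (right) in each library; points are libraries, lines are means of 2, and colours mark the 3 cell lines. The mRNA share is lower with IFN in each pair (3.23 and 3.23 against 2.65 and 2.51% in parental cells), while the rRNA share is highest in replicate 1 of KRAB-D9 with IFN (1.24%).

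tRNAs are short and mostly lack a polyA tail, and they took under 0.02% of counts. Their median was under 100 counts in 15 of the 22. Most tRNA counts, 74.3 to 86.1% by library, came from the 8 tRNAs of the minus strand, and 3 of these, MT-TC (cysteine), MT-TN (asparagine) and MT-TP (proline), had over 1000 counts in every library. Their whole sequences are shown as the tRNAs best measured here, with no part in capitals. Their longest runs of A are 3, 2 and 3 bases.
MT-TC, chrM:5761-5826, minus strand: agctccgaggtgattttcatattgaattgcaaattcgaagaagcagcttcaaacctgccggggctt
MT-TN, chrM:5657-5729, minus strand: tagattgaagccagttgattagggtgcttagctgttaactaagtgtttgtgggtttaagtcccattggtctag
MT-TP, chrM:15956-16023, minus strand: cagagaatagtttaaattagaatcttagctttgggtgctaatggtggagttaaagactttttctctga
They lie opposite the heavy-strand transcript, and without the strand setting of the counting their reads cannot be told apart from that transcript's.

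Few tRNAs were called in any comparison. MT-TP was at 45.5 and 50.6 CPM in parental cells and at 25.2 and 29.2 in VPR-D9 cells without treatment (-0.82 ± 0.13, adjusted p = 8.5e-05 by edgeR). MT-TP rose with doxycycline in KRAB-D9 cells, from 39.5 and 35.4 to 51.5 and 54.4 CPM (0.50 ± 0.13, adjusted p = 0.0084). MT-TC was at 40.1 and 39.4 CPM in untreated VPR-D9 cells and at 30.8 and 29.4 in D2000 (-0.40 ± 0.07, adjusted p = 5.1e-06), and was called with library totals too. MT-TV (valine), which sits between the rRNAs, had 27 to 204 counts a library. It fell with IFN in parental cells, from 127 and 130 counts to 55 and 53 (-1.14 ± 0.30, adjusted p = 0.019), a call lost when any of those libraries was left out. MT-TR (arginine), between MT-ND3 and MT-ND4L, went the other way there, from 2.97 and 3.13 CPM to 5.20 and 5.37 (0.79 ± 0.18, adjusted p = 0.0052). In all, the 22 tRNAs gave 1 higher and 1 lower call with IFN in parental cells (of all genes, 4.34% were called), 1 higher call for IFN in KRAB-D9 cells (MT-TC, 0.22; 6.4% of all genes), and 0 higher and 1 lower with IFN and doxycycline (MT-TH, histidine, -0.72; 4.89%). Doxycycline without IFN gave MT-TP alone, where 24.7% of all genes were called. Doxycycline with IFN gave 0 higher and 3 lower (MT-TV, -1.26, MT-TL1, leucine, -0.64, and MT-TC, -0.23), where 11.9% of all genes were lower. D2000 gave 0 higher and 4 lower (MT-TV, -0.85, MT-TL1, -0.49, MT-TC, and MT-TN, -0.37), where 24.2% of all genes were lower. D6 gave no call by edgeR (0 at an unadjusted p under 0.05, 0 by DESeq2, 6.6% of all genes), while D6 against D2000 gave the same 4 names as higher (0.27 to 0.79, where 21.7% of all genes were higher), of which none was called higher with library totals except MT-TL1. In untreated VPR-D9 cells against parental cells there were 3 higher (MT-TM, methionine, 0.99, MT-TR, 0.78, and MT-TL1, 0.32) and 3 lower (MT-TP, MT-TC, -0.34, and MT-TN, -0.23), and in untreated KRAB-D9 cells 3 higher (MT-TS2, serine, 1.30, MT-TR, 1.19, and MT-TH, 0.60) and 1 lower (MT-TP, -0.36). Of all genes, 36.8% and 28.5% were called in these comparisons of lines, so the share of tRNAs called was below that of all genes in both.

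Nuclear genes that make, process or degrade mitochondrial RNA, or copy and maintain mitochondrial DNA, were followed in 4 lists with 56 genes tested. The list for the DNA held 12 of them. With IFN few of them were called, and PNPT1 changed most. It encodes the exoribonuclease of mitochondrial RNA decay and is known as an interferon-induced gene. PNPT1 was at 155 and 156 CPM in untreated parental cells and at 299.8 and 283 with IFN (0.91 ± 0.04, edgeR Benjamini-Hochberg adjusted p = 7.4e-20). PNPT1 in KRAB-D9 cells went from 122 and 126 to 276 and 256 CPM (1.10 ± 0.04, adjusted p = 1.8e-22), and with doxycycline present from 99.0 and 98.2 to 234 and 232 (1.24 ± 0.04, adjusted p = 4.1e-24). No other gene of the 56 was called with IFN in parental cells, where 4.34% of all genes were called. In KRAB-D9 cells there were 3 higher and 2 lower, where 6.4% of all genes were called. Beside PNPT1 the higher were NSUN4 (0.24) and TOP1MT (0.19), and the lower were PRIMPOL (-0.38) and FASTK (-0.16). With doxycycline there were 2 higher, PNPT1 and its partner helicase SUPV3L1 (0.17), where 4.89% of all genes were called. POLRMT, TFAM and LRPPRC were called with IFN in none of the 3, with values from -0.13 to 0.15. Whether PNPT1 had a part in the lower mRNA levels was not tested.

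Many of these nuclear genes were lower in doxycycline-treated KRAB-D9 cells, where the drug and the dCas9-KRAB it induces cannot be told apart. In KRAB-D9 cells 33 of 56 were called lower and 3 higher, with a median of -0.22, in the comparison where 12.7% of all genes were called lower. By list, 5 of 10 genes of mtDNA transcription were lower and 2 higher, 8 of 12 of mtDNA replication and upkeep lower and 1 higher, 10 of 18 of RNA processing and modification lower, and 10 of 16 of RNA stability and decay lower. TWNK, the replicative helicase, was -0.70 ± 0.06 (edgeR Benjamini-Hochberg adjusted p = 3.4e-12), TFB2M -0.55 ± 0.06 (adjusted p = 4.0e-10), TFAM -0.34 ± 0.04 (adjusted p = 1.5e-07), PNPT1 -0.33 ± 0.04 (adjusted p = 1.6e-07) and POLRMT -0.30 ± 0.06 (adjusted p = 0.00020). LRPPRC was not called (-0.06). In the same libraries 6 of the 13 mitochondrial mRNAs were called higher, as given above. With IFN present, 30 nuclear genes were called lower and 2 higher, where 11.9% of all genes were called lower. PNPT1 was then -0.19 ± 0.04, TFAM -0.26 and LRPPRC -0.10, all called, and POLRMT -0.12, not called.

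D2000 had the largest fall: 49 of 56 were called lower and 1 higher, with a median of -0.58, where 24.2% of all genes were called lower. All 10 genes of mtDNA transcription were lower, as were 10 of 12 of replication and upkeep, 15 of 18 of processing and modification and 14 of 16 of stability and decay. PNPT1 went from 119 and 122 CPM to 48.7 and 49.3 (-1.30 ± 0.04, edgeR Benjamini-Hochberg adjusted p = 9.2e-25). LRPPRC went from 527 and 549 to 314 and 308 (-0.79 ± 0.04, adjusted p = 4.7e-21), TFAM from 226 and 236 to 143 and 133 (-0.74 ± 0.04, adjusted p = 2.5e-17) and POLRMT from 142 and 140 to 97.2 and 101 (-0.51 ± 0.06, adjusted p = 1.0e-08). TWNK (-1.43), TFB2M (-1.32), SLIRP (-1.24) and PUS1, a pseudouridine synthase (-1.17), fell as well. With library totals 37 were called lower and 3 higher. In D6, 4 of 56 were called lower and 0 higher, HSD17B10, PNPT1, TRMU and FASTKD5 (-0.15 to -0.24), where 3.41% of all genes were called lower. POLRMT (-0.07), TFAM (-0.01) and LRPPRC (-0.08) were not called. With library totals these became 0 lower and 1 higher, and with 1 library left out 0 or 1 lower. Against D2000, D6 had 44 called higher and 0 lower, where 21.7% of all genes were higher, with PNPT1 at 1.15 ± 0.05, TFAM at 0.73, LRPPRC at 0.72 and POLRMT at 0.44. Untreated VPR-D9 cells had 6 higher and 24 lower than parental cells (18.5% and 18.2% of all genes), which became 13 and 16 with library totals, and untreated KRAB-D9 cells had 7 and 24 (14.2% and 14.3% of all genes). In both lines PNPT1 (-0.36 and -0.32) and LRPPRC (-0.22 and -0.24) were lower, and the MT-CYB to MT-ND1 ratio was above that of parental cells in VPR-D9 (1.07 and 1.09) and below it in KRAB-D9 (0.735 and 0.715).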

How the data were processed

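The deposited values are whole-number read counts per gene, made by the authors; featureCounts 2.0.2, STAR 2.7.8a, cutadapt 2.10 and FastQC 0.11.9 are listed with GRCh38.p13 in the submitters' processing notes. The annotation release and counting options were not given in the sources used here. The 37 rows of chromosome M matched GENCODE release 29 by identifier, coordinates and length. Genes were filtered with filterByExpr by group, scaled by TMM and tested in 1 edgeR 4.0.16 quasi-likelihood model (robust, R 4.3.3) of 9 group means over 18 libraries, with 9 residual degrees of freedom. Genes with a Benjamini-Hochberg adjusted p under 0.05 over 22143 genes were called. The standard error is the size of the log2 fold change over the square root of F. The model was also run on simulated counts with known changes placed in the parental IFN group, and the outcome is not given here. Of the 32694200 to 63037568 counts a library, most tRNAs took few, so their values are imprecise.

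By rule the text names the 3 called mRNAs with the largest change in a comparison, both rRNAs, called tRNAs (up to 4, by adjusted p), POLRMT, TFAM, LRPPRC and PNPT1 in treatment comparisons, and 3 called members of each nuclear list. Other called members are named too. Some nuclear genes, and some rRNA values without a call, are left out for length. The members and lists were chosen with earlier results of these data known. Alternatives were library totals, DESeq2 size factors, scaling from nuclear genes, no filter, a replicate block, DESeq2 1.42.0, fits to the compared groups alone or without KRAB-D9 with IFN, and leaving out each library. Replicate numbers are shared between groups, and the labels give them no meaning.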

Additional observations from a re-analysis of the deposited data

Results flagged for a closer look

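A test of the difference in doxycycline effect between the VPR-D9 and KRAB-D9 lines called some members and nuclear genes, at a share of the members no higher than that of all genes. The difference is D2000 against untreated VPR-D9 cells minus doxycycline against untreated KRAB-D9 cells, on the log2 scale, and all values are from edgeR's quasi-likelihood test with Benjamini-Hochberg adjustment. It was called lower for 4 of the 13 mRNAs, where 31.3% of all genes were called, 19.1% as lower. These were MT-ND4L (-0.35, adjusted p = 0.046), MT-CO1 (-0.33, adjusted p = 2.8e-05), MT-ND5 (-0.32, adjusted p = 0.010) and MT-ND2 (-0.28, adjusted p = 0.037). Of the tRNAs, MT-TP (-0.72, adjusted p = 0.0061), MT-TC (-0.44, adjusted p = 0.00030) and MT-TN (-0.32, adjusted p = 0.023) were called. Of the 56 nuclear genes tested, 39 were called lower and 1 higher, a larger share than that of all genes. PNPT1 (-0.97), LRPPRC (-0.73) and TFAM (-0.41) were among the lower, and POLRMT (-0.21) was not called. With D6 in place of D2000, no mRNA was called (edgeR, 0 of 13, 4 at an unadjusted p under 0.05, 0 by DESeq2, 15.5% of all genes called). Of the nuclear genes, 15 were then called higher and 2 lower, where 7.87% and 7.63% of all genes were. TFAM (0.33) and PNPT1 (0.18) were among the higher, while POLRMT (0.23) and LRPPRC (-0.01) were not called. The lines differ in the dCas9 protein induced and may differ in the dose and time of doxycycline, which cannot be told apart. With library totals in place of TMM none of the 4 mRNAs was called (MT-CO1 at -0.14), and without both libraries of KRAB-D9 with IFN 11 mRNAs were called lower. Leaving out 1 library left 1 to 3 of the mRNAs called, with 1 left without D2000 replicate 2 or without untreated KRAB-D9 replicate 1. MT-CO1 was called in each of these.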

How the results depend on the processing

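Counts of called mRNAs (of 13) moved in most comparisons when other libraries entered the fit, which also changes the genes tested and the scaling. Without both libraries of KRAB-D9 with IFN they were 11 (parental IFN), 12 (KRAB-D9 IFN with doxycycline), 10 (KRAB-D9 doxycycline), 6 (D2000), 8 (D6 against D2000), 8 and 7 (untreated VPR-D9 and KRAB-D9 against parental), and 11 and 8 (doxycycline effect of D2000 and of D6 minus that of KRAB-D9). In fits to the compared groups alone they were 12, 13, 11, 9, 9, 10, 9, 13 and 8 in the same order, and 3 for D6. There KRAB-D9 IFN (6), doxycycline with IFN (5) and both differences of IFN effects (0) stayed within 1.5 times, and D6 stayed at 0 without both libraries. Without the filter on low counts they were 4 for D2000, 5 for D6 against D2000, 6 for untreated VPR-D9, 1 for the interaction of IFN with doxycycline, 2 for the IFN effect in KRAB-D9 minus parental and 4 for D6 minus KRAB-D9. DESeq2 gave 8 for parental IFN. Library totals gave 5 for D2000, 5 for untreated VPR-D9 and 0 for D2000 minus KRAB-D9. Scaling from nuclear genes and DESeq2 size factors moved none of these counts by over 1.5 times. Where no cause is given by the alternative's own construction, the cause was not tested.

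With each library left out in turn, the counts ranged from 1 to 4 (parental IFN), 2 to 11 (KRAB-D9 IFN), 2 to 4 (KRAB-D9 IFN with doxycycline), 1 to 3 (KRAB-D9 doxycycline), 2 to 12 (doxycycline with IFN), 1 to 2 (D2000), 0 to 0 (D6), 1 to 3 (D6 against D2000), 1 to 2 (untreated VPR-D9), 2 to 2 (untreated KRAB-D9), 0 to 5 (interaction), 0 to 7 (IFN effect in KRAB-D9 minus parental), 1 to 3 (D2000 minus KRAB-D9) and 0 to 1 (D6 minus KRAB-D9).

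With the replicate number as a block the count was 4 for parental IFN and was unchanged for the other comparisons (7 for KRAB-D9 IFN, 6 for KRAB-D9 doxycycline, 2 for D2000). The labels give the numbers no meaning. Over all pairs of groups, the correlation of deviations between same-numbered libraries ranged from -0.193 to 0.283. It was highest for the IFN groups of parental and KRAB-D9 cells, and most pairs lay under 0.1.

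For 103 results of named members, of 1272 values under alternatives, 1047 kept direction and side of the threshold, 190 lost a call, 25 gained one and 10 changed sign. Beyond these named results, library totals changed the sign of 8 of 13 mRNAs in D2000, 6 in D6 against D2000 and 4 in D2000 minus KRAB-D9. With library totals the sign changed among named results for MT-CO1 (0.066) and MT-RNR2 (0.20) in D2000, MT-RNR1 in D6 (0.025), MT-RNR2 in D6 against D2000 (-0.054), and MT-RNR2 (0.099) and MT-RNR1 (0.056) in D2000 minus KRAB-D9. MT-RNR1 in D6 was 0.0075 in the compared groups alone. With single libraries left out, MT-RNR2 in D2000 ranged from -0.069 to 0.0050 (the latter without D2000 replicate 2), and MT-RNR1 from -0.42 to 0.12 in untreated VPR-D9 and from -0.52 to 0.015 in untreated KRAB-D9 cells, both highest without parental replicate 2.

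For 144 results of nuclear genes, of 1841 values, 1731 kept both, 76 lost a call, 19 gained one and 15 changed sign. TFAM in D6 was 0.025 with library totals and 0.0076 in the compared groups alone. In D6 minus KRAB-D9, LRPPRC was 0.0034 with DESeq2 size factors, 0.0038 in the compared groups alone and 0.0035 with DESeq2. With single libraries left out, POLRMT ranged from -0.31 to 0.012 and TFAM from -0.077 to 0.051 for KRAB-D9 IFN, LRPPRC from -0.0029 to 0.027 for IFN with doxycycline, and POLRMT from -0.26 to 0.061 for doxycycline with IFN. TFAM ranged from -0.045 to 0.018 in D6, and LRPPRC from -0.082 to 0.00086 in the interaction and from -0.054 to 0.030 in D6 minus KRAB-D9. Among the members, counts were lowest for the tRNAs.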
